A study of Mus musculus with 4 samples.

Results

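The transcripts examined here were those of 10 genes of Notch signaling. They were the nuclear effectors Rbpj and Maml1, the target genes Hey1, Hey2, Heyl, Hes1, Hes5 and Nrarp, and the fringe enzymes Lfng and Mfng. The fringe enzymes act on the receptors, before the nuclear step. The genes were taken by gene symbol from a table of 24873 genes, and all 10 were present. The cells came from the brains of mice of the genotype Cdh5cre;Mgpflox/flox. In these mice a tamoxifen-inducible Cre under the endothelial VE-cadherin (Cdh5) promoter removes Mgp, the gene of matrix Gla protein, a secreted BMP inhibitor. The age given for both groups is 10 weeks, which in the study is the age at tamoxifen injection. The tamoxifen group received 75 mg/kg tamoxifen for 5 consecutive days, and the control group carried the same alleles but received no tamoxifen, so the drug and the deletion cannot be told apart in these libraries. Cells were collected on day 9. The labels call the cells brain tdTomato+, the series design calls them CD31+CD45-, and each group had 2 libraries, each pooled from 3 mice. The question was how the transcriptome of these cells differs after Mgp deletion.

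Notch receptors are cleaved when a ligand on a neighboring cell pulls on them, and the freed intracellular domain enters the nucleus. There it binds the DNA-binding protein Rbpj and recruits a Mastermind protein such as Maml1, which turns a repressor complex into an activator. The best known direct targets are the Hes and Hey genes, which encode basic helix-loop-helix repressors, and Nrarp, which encodes a feedback inhibitor of the pathway. Fringe enzymes add sugars to the receptors and bias which ligands they answer to. In blood vessels the pathway is known for arterial identity and for restraint of sprouting in the endothelium, and for maintenance of mural cells through Notch3.

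The letters of the Rbpj site, GTGNGAA, were searched for on both strands of the RefSeq promoters (GRCm38.p6, from 250 bases before to 50 bases after the annotated start, 300 bases in all). Promoters were matched for 6 of the 10 genes, namely Hes5, Hey2, Lfng, Nrarp, Rbpj and Maml1, with 7 promoters because Rbpj had more than 1 annotated start. The following promoters are shown because they held the letters, which are in capitals, either as GTGNGAA or as its reverse complement TTCNCAC. Of these genes, Hes5 and Hey2 were called higher after tamoxifen and Lfng was not called. No promoter was matched for Hey1, Hes1 and Mfng, the genes called lower, so matches cannot be set against the direction of change.
Hes5, chr4:154960673-154960972, plus strand: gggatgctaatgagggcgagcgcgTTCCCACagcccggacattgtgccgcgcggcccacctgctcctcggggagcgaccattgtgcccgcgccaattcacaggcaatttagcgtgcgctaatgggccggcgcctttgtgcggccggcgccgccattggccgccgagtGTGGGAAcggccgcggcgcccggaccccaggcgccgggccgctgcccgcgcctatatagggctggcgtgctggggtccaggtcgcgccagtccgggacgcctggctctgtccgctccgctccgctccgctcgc
Hey2, chr10:30842734-30843033, minus strand: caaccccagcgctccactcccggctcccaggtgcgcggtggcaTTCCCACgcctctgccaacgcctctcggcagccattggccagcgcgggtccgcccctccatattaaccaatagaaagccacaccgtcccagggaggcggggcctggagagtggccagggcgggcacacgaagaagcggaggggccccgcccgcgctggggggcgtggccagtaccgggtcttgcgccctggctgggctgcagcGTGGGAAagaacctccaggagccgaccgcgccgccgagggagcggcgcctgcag
Lfng, chr5:140607091-140607390, plus strand: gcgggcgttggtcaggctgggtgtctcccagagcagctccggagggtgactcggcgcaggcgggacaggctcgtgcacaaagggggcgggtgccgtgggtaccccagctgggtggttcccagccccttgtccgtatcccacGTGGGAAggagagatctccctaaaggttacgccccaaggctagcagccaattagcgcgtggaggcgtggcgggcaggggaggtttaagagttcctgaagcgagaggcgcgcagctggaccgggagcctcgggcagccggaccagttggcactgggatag
With positions counted from 0 at the annotated first base of the gene, the Hes5 matches began at -226 and -83, the Hey2 matches at -207 and -4, and the Lfng match at -109. The promoters of Nrarp, Rbpj and Maml1 did not hold these letters in this window. Of 32851 promoters of the same length, 14.2% held at least 1 match and 1.26% held 2 or more. The letters CACGNG, of the E-box and N-box class bound by Hes and Hey proteins, were found in the Lfng promoter 3 times and in the Nrarp promoter once, against 27.5% of all promoters with at least 1 match. In Lfng the match at -112 overlapped the Rbpj letters by position. A match of letters is a description and does not show binding.

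The libraries held 35387438 to 49799321 reads on genes, and values are given as normalized counts, the read counts divided by the size factors of the study. Expression was compared with limma on log2(normalized count + 1), so a fold change of a low gene is understated. A gene was called when its Benjamini-Hochberg adjusted p was under 0.05 and its absolute log2 fold change was over 1. Of 20485 genes tested, 5867 were called higher and 3284 lower, which is 44.7% of genes (28.6% higher and 16.0% lower). The split depended on scaling, with 7206 higher and 1838 lower when all libraries were brought to equal totals and 4615 higher and 5509 lower after quantile normalization. Mgp itself stood at 1094 and 1352 normalized counts in the controls and at 945 and 909 after tamoxifen, a log2 difference of -0.39 ± 0.18 (SE) that was not called (limma, Benjamini-Hochberg adjusted p = 0.0986) and was 0.079 under equal totals. Reads over the removed exons were not examined separately. The 10 endothelial markers were all lower (log2 fold changes -3.43 to -2.75), and their sum was 964318 to 988125 normalized counts in the controls against 85910 to 168017 after tamoxifen. In the same tamoxifen libraries 8 of 8 pluripotent cell, 6 of 6 neutrophil, 5 of 5 erythrocyte, 6 of 6 fibroblast and 5 of 5 lymphocyte markers were called higher. So were 5 of 5 cell cycle, 5 of 6 oligodendrocyte precursor, 4 of 6 neuron and 3 of 7 microglia markers, beside 28.6% of all genes tested. No marker of any list had 0 reads in both controls. Genes were tested at a mean of at least 10 normalized counts. Nanog, Sall4, Lin28a, Zfp42, Mpo, Cd3e and Sox10 reached that mean only through the tamoxifen libraries, so the filter fixed their direction. A CD31+CD45- gate is meant to leave out CD45+ blood cells and the CD31- mural and neural cells of the brain. In bulk RNA, fewer cells of a type and less RNA per cell cannot be told apart, and the part of these cell types in the results below was not tested.

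The Notch effectors and targets did not move as 1 group. All 10 passed the filter of a mean of at least 10 normalized counts. Hes5, Rbpj and Hey2 were called higher, Hey1, Hes1 and Mfng were called lower, and Heyl, Nrarp, Maml1 and Lfng were not called. That is 6 of 10, beside 44.7% of all genes tested, and their median was 0.00 on the log2 scale beside 0.05 over all genes tested. By the adjusted p alone, 8 passed, 3 higher and 5 lower, beside 58.9% of all genes. The libraries of both groups were separated for 9 of the 10 genes, 4 above and 5 below, beside 82.3% of all genes. Under equal totals 5 were higher and 3 lower, and after quantile normalization 2 were higher and 3 lower. The smallest p that exact permutation of 2 against 2 libraries allows is 0.333, and the p-values given therefore depend on the variance that limma pooled across genes.

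**Figure D1:**
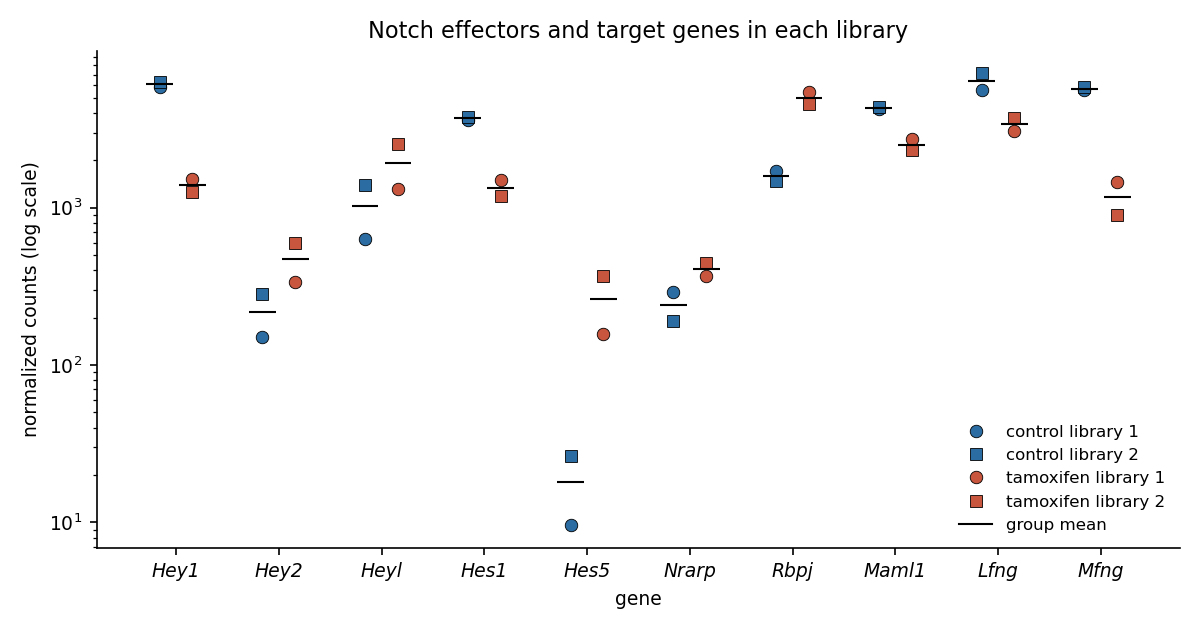
Normalized counts (log scale) of the 10 genes in each of the 4 libraries, with circles for library 1, squares for library 2, blue for control, red for tamoxifen and a bar for the mean. Hey1, Hes1, Maml1, Lfng and Mfng sat lower in both tamoxifen libraries, Hey2, Hes5, Nrarp and Rbpj sat higher in both, and the Heyl libraries overlapped.

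Rbpj and Maml1, the DNA-binding core and the coactivator of the Notch transcription complex, went in opposite directions. Rbpj (ENSMUSG00000039191.14, GRCm39 chr5:53623494-53814704, plus strand) was at 1716 and 1477 normalized counts in the controls and at 5449 and 4543 after tamoxifen. Both tamoxifen libraries lay above both controls. The mean rose from 1597 ± 169 to 4996 ± 641 (SD, n = 2 each), 3.13-fold, with a log2 fold change of 1.64 ± 0.17 (SE; limma, Benjamini-Hochberg adjusted p = 0.000148). The call held in every alternative tried, with log2 values from 1.51 to 2.11. A processed pseudogene that carries the name of Rbpj, Rbpj-ps3, had 16.4 and 7.51 normalized counts in the controls and 209 and 171 after tamoxifen, so how reads were split between the gene and its copies is uncertain. Maml1 (ENSMUSG00000050567.18, chr11:50146461-50183190, minus strand) was at 4212 and 4379 normalized counts in the controls and at 2711 and 2314 after tamoxifen. Its groups did not overlap, and its adjusted p passed, but the difference was within the size limit (log2 fold change -0.78 ± 0.16 SE, 95% interval -1.14 to -0.42; limma, Benjamini-Hochberg adjusted p = 0.00366). Under equal totals the Maml1 difference was -0.31, and its adjusted p was no longer under 0.05 (limma, Benjamini-Hochberg adjusted p = 0.0785).

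Among the Hey genes, Hey1 was lower after tamoxifen while Hey2 was higher. Hey1, an endothelial Notch target that acts in arterial specification (ENSMUSG00000040289.10, chr3:8726956-8732385, minus strand), was at 5824 and 6293 normalized counts in the controls and at 1522 and 1249 after tamoxifen. The replicates were close to each other and the groups were well apart. Its mean was 4.37-fold lower, 6059 ± 332 against 1386 ± 192 (SD, n = 2 each), a log2 fold change of -2.13 ± 0.16 (SE; limma, Benjamini-Hochberg adjusted p = 5.03e-05). Hey1 is also among the genes that the study displayed from these libraries, so its direction is not independent evidence.

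Hey2, the relative of Hey1 known from the developing heart and aorta (ENSMUSG00000019789.11, chr10:30708350-30718828, minus strand), was at 150.7 and 284.1 normalized counts in the controls and at 338.1 and 599.6 after tamoxifen. All tamoxifen values were above all control values, although in both groups library 2 was well above library 1. The mean was 2.16-fold higher and the log2 fold change was 1.12 ± 0.40 (SE; 95% interval 0.18 to 2.05; limma, Benjamini-Hochberg adjusted p = 0.0432). The call was kept in 9 of 15 alternatives, and it was lost without control library 1 (log2 0.66), without tamoxifen library 1 (1.53) and without tamoxifen library 2 (0.71). After quantile normalization the Hey2 value was 0.15.

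Heyl, a Notch target best known from mural cells downstream of Notch3 (ENSMUSG00000032744.6, chr4:123127349-123143682, plus strand), was at 634 and 1399 normalized counts in the controls and at 1318 and 2536 after tamoxifen. The first tamoxifen library lay between the controls, so the groups overlapped. The log2 difference of 0.96 ± 0.41 (SE; 95% interval 0.0025 to 1.91) was not called (limma, Benjamini-Hochberg adjusted p = 0.0780). It was called when control library 2 was left out (log2 1.53) and under equal totals (1.43), and it was 0.39 without control library 1 and 0.48 without tamoxifen library 2, not called in either.

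The spread within the groups of Hey2 and Heyl ran beside that of pericyte and smooth muscle markers. The summed level of those 10 markers was 26708 and 46677 normalized counts in the controls and 36588 and 69854 after tamoxifen, with library 2 the higher in both groups. Of the 10 markers, which include Notch3, 4 were called higher and 0 lower, beside 28.6% and 16.0% of all genes tested. None was at 0 reads in both controls. Tagln sat lower in both tamoxifen libraries (log2 -1.43) but was not called. Rgs5 was the largest part of the sum, at 16212 and 26543 normalized counts in the controls and 14466 and 30134 after tamoxifen. It was not called (log2 0.01), and the ratios below weigh it most. Per 1000 normalized counts of the 10 markers, Heyl was at 23.7 and 30.0 in the controls and at 36.0 and 36.3 after tamoxifen. The same ratio for Hey2 was 5.64 and 6.09 against 9.24 and 8.58. The log2 difference of the ratio was 0.44 for Heyl and 0.60 for Hey2, where those of the genes alone were 0.96 and 1.12. The marker sum was higher on average after tamoxifen, so such a ratio changes less than the gene alone for any gene. The smaller values therefore say nothing about where the Hey2 and Heyl transcripts come from. These ratios were added after the values had been seen, and the part of mural cells, which a CD31+ gate is meant to leave out, in the Hey2 and Heyl values was not tested.

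Of the Hes genes, Hes1 was lower and Hes5 was higher after tamoxifen. Hes1, a repressor that many cell types use to hold back differentiation (ENSMUSG00000022528.10, chr16:29882134-29886643, plus strand), was at 3617 and 3784 normalized counts in the controls and at 1492 and 1185 after tamoxifen. The groups were far apart compared with the distance between replicates. The mean was 2.76-fold lower, with a log2 fold change of -1.48 ± 0.17 (SE; limma, Benjamini-Hochberg adjusted p = 0.000242), and the call held in every alternative tried (-1.64 to -1.01).

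Hes5, the Notch target that marks neural stem cells and astroglia (ENSMUSG00000048001.9, chr4:155045373-155046828, plus strand), was at 9.59 and 26.3 normalized counts in the controls and at 158 and 365 after tamoxifen. These are 7 and 21 reads against 146 and 508 reads, so the control level rests on few reads. The mean was 14.6-fold higher, and the log2 fold change of 3.83 ± 0.64 (SE) was the largest of the 10 genes (limma, Benjamini-Hochberg adjusted p = 0.00153). Leaving out tamoxifen library 1 or 2 ended the call (log2 4.43, adjusted p = 0.0511, and 3.23, adjusted p = 0.0891, limma with Benjamini-Hochberg adjustment), and leaving out control library 1 or 2 kept it at 3.15 or 4.51. Hes5 is one of the genes above with 2 matches to the Rbpj letters in its promoter. The promoters of Hey1, Hes1 and Mfng were not searched.

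Markers of neural cells were higher in the same libraries as Hes5. The astrocyte list was higher for 8 of 8 markers, beside 28.6% of all genes tested. Its sums were 28807 to 33844 normalized counts in the controls and 139043 to 291853 after tamoxifen. The neural progenitor list had 6 of 8 higher and 1 lower, Nes, beside 28.6% and 16.0% of all genes tested. Its sums were 66077 to 68352 against 50992 to 58136. None of either list was at 0 reads in both controls, but Eomes reached the filter mean of 10 only through the tamoxifen libraries. Per 1000 normalized counts of the astrocyte markers, Hes5 was at 0.333 and 0.777 in the controls and at 1.14 and 1.25 after tamoxifen. That is a log2 difference of 1.23, where that of Hes5 alone was 3.92 without a pseudocount. The astrocyte sum was higher after tamoxifen, so the smaller value follows for any gene and says nothing about the source of Hes5. Per 1000 of the neural progenitor markers, whose sum is mostly Nes and Vim, Hes5 was at 0.145 and 0.385 against 2.72 and 7.16. Nes was lower (log2 -2.12) and Vim was not called (0.10), so this ratio does not set Hes5 against the 6 markers that were higher. These ratios were also added after the values had been seen, and the part of neural cells, which the same gate is meant to leave out, in the Hes5 value was not tested.

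Nrarp, the feedback inhibitor that binds the Notch intracellular domain (ENSMUSG00000078202.4, chr2:25070770-25073351, plus strand), was at 290.4 and 190.2 normalized counts in the controls and at 368 and 443 after tamoxifen. Both tamoxifen libraries were above both controls, but the difference was not called (log2 0.78 ± 0.30 SE, 95% interval 0.08 to 1.48; limma, Benjamini-Hochberg adjusted p = 0.0557). It was called under equal totals (1.25) and without control library 1 (1.08), and it turned to -0.24 after quantile normalization. An antisense transcript over Nrarp, Gm13387, had 10.8 to 45.2 normalized counts per library, and whether counting used strand is not given in the sources used here. The same holds for Gm26542 over Maml1, at 12.5 to 50.7 normalized counts.

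Both fringe enzymes were lower after tamoxifen by the adjusted p, and only Mfng passed the size limit. Mfng, manic fringe (ENSMUSG00000018169.14, chr15:78640074-78657718, minus strand), was at 5578 and 5811 normalized counts in the controls and at 1451 and 896 after tamoxifen. The groups were well apart, with more spread in the tamoxifen group. Its mean was 4.85-fold lower, 5694 ± 165 against 1174 ± 392 (SD, n = 2 each), and the log2 fold change of -2.32 ± 0.23 (SE) was the most negative of the 10 (limma, Benjamini-Hochberg adjusted p = 0.000129). Lfng, lunatic fringe (ENSMUSG00000029570.7, chr5:140593075-140601300, plus strand), was at 5568 and 7132 normalized counts in the controls and at 3087 and 3699 after tamoxifen. The groups did not overlap, but the log2 difference of -0.90 ± 0.18 (SE; 95% interval -1.33 to -0.47; limma, Benjamini-Hochberg adjusted p = 0.00407) was within the size limit. It passed the limit without control library 1 (-1.08), and it was -0.43 under equal totals. The adjusted p of Lfng was above 0.05 under equal totals (0.0911), without tamoxifen library 1 (0.0874) and without tamoxifen library 2 (0.0631; limma, Benjamini-Hochberg adjusted p in each).

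**Figure D2:**
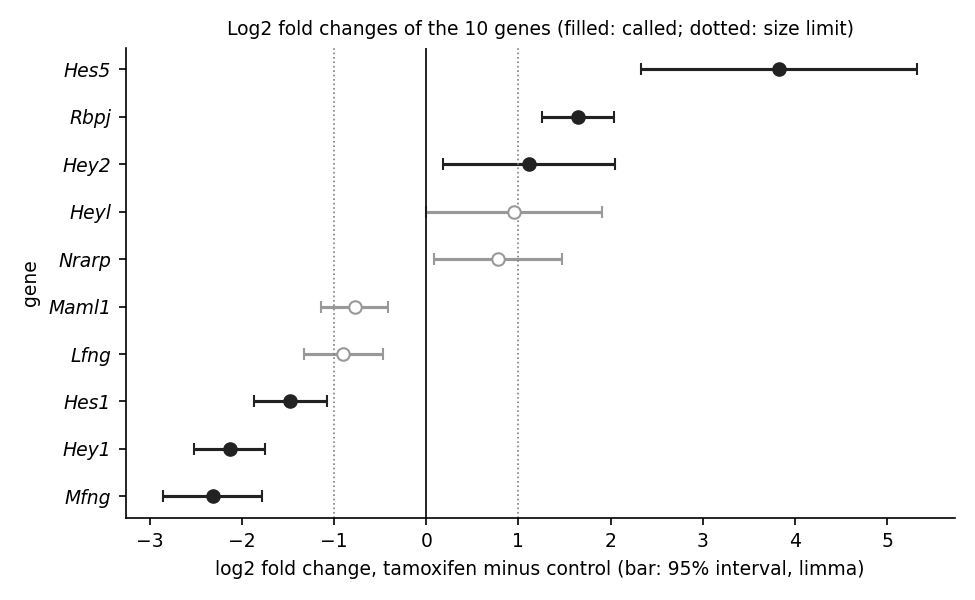
Log2 fold change (tamoxifen minus control) of each gene from limma with its 95% interval, filled where called and open where not, with dotted lines at the size limit of 1. The values run from -2.32 for Mfng to 3.83 for Hes5, and the interval of Hes5 is the widest.

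Levels were compared between genes as reads per kilobase of exon, scaled to the reads on genes of each library (RPKM). In the controls the order of mean RPKM was Lfng at 48.9 ± 8.50, Mfng at 30.4 ± 0.87, Hey1 at 24.6 ± 1.34, Hes1 at 21.4 ± 0.67 and Maml1 at 13.0 ± 0.35 (SD, n = 2). These leading genes did not overlap with their neighbors in the order. Below them were Heyl at 3.74, Rbpj at 2.42, Nrarp at 1.81, Hey2 at 0.86 and Hes5 at 0.25 RPKM, where only Heyl and Rbpj overlapped. After tamoxifen Lfng was still the highest, at 36.3 ± 6.39 RPKM. The next 8 genes ran from Hes1 at 10.7 to Nrarp at 4.26 RPKM, and within this run each gene overlapped with its next neighbor. Genes farther apart in the run could still be separate, as Hes1 (9.80 to 11.5) was from Hey1 (7.28 to 8.27) and Hey1 from Nrarp (3.72 to 4.79). Hey2 was the lowest at 2.61 RPKM and did not overlap with Nrarp.

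Within the families, the balance of the members moved. Hey1 made up 89.0% and 80.3% of the reads per kilobase of the 3 Hey genes in the controls and 49.9% and 30.2% after tamoxifen. Heyl made up 8.78% and 16.2% against 39.2% and 55.6%, and Hey2 made up 2.25% and 3.54% against 10.9% and 14.2%. The tamoxifen libraries thus had Hey transcripts of mixed type where the controls had mainly Hey1. Of the sum of Hes1 and Hes5, Hes5 was 0.65% and 1.68% in the controls and 20.7% and 43.2% after tamoxifen. Of the 3 fringe genes, the third being Rfng, Mfng was 36.6% and 32.2% against 19.9% and 11.6%, and Lfng was 52.7% and 57.1% against 61.2% and 69.0%. Every one of these shares was separated between the groups, where the levels of 82.3% of all genes tested were separated too. Shares within a family are tied to each other, so their separation says little about each gene. This is a description and was not tested.

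**Figure D3:**
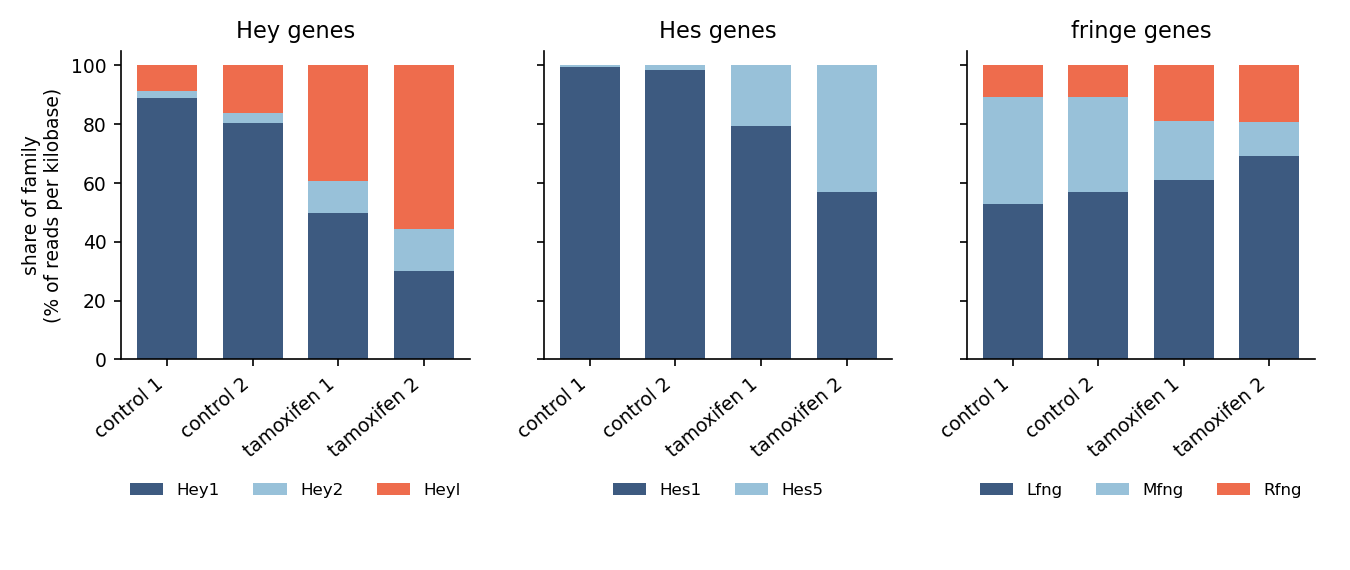
Share of each gene in its family, in percent of reads per kilobase, stacked to 100% for the 3 Hey genes, for Hes1 and Hes5, and for the 3 fringe genes, with 1 bar for each library. The Hey1 share drops from 89.0% and 80.3% to 49.9% and 30.2%, and the Hes5 share grows from 0.65% and 1.68% to 20.7% and 43.2%.

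The fall of the endothelial markers was larger than that of any of the 10 genes. Per 1000 summed normalized counts of the 10 endothelial markers, Hey1 was at 5.89 and 6.53 in the controls and at 9.06 and 14.5 after tamoxifen, 1.85-fold higher by geometric means. Mfng, the gene with the deepest fall in normalized counts, was 1.63-fold higher on this scale, at 5.64 and 6.03 against 8.64 and 10.4. Hes1 was 2.92-fold, Lfng 4.36-fold, Maml1 4.74-fold, Nrarp 14.0-fold, Heyl 15.8-fold, Hey2 17.7-fold, Rbpj 25.4-fold and Hes5 123-fold higher. On this scale all 10 genes were above the controls in both tamoxifen libraries, as were 94.5% of all genes tested, so the count says little about these genes. Against Cdh5 alone, the gene of VE-cadherin, the count was 10 as well, with Hey1 1.63-fold and Mfng 1.44-fold higher. No test was made of these ratios.

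**Figure D4:**
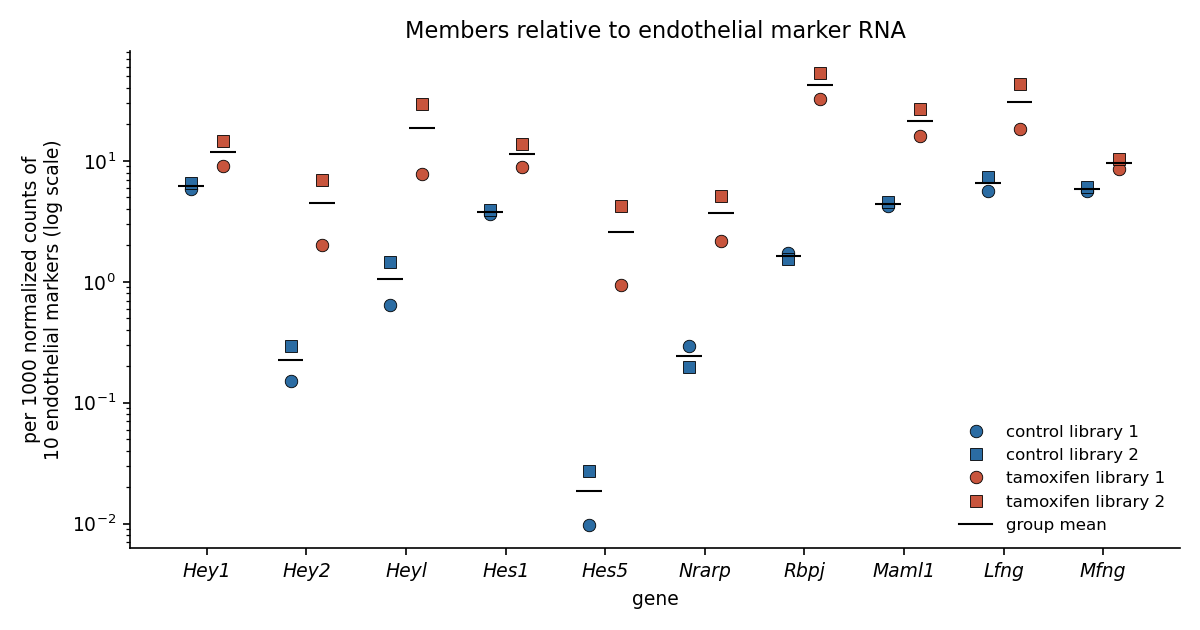
Each gene per 1000 summed normalized counts of 10 endothelial markers (log scale) in the 4 libraries, with circles for library 1, squares for library 2, blue for control, red for tamoxifen and a bar for the arithmetic mean. All 10 genes are higher in both tamoxifen libraries, least so Mfng and Hey1.

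The genes whose profile over the 4 libraries was nearest were taken from the 10 genes, the pathway list and the cell markers, 164 in all, by the distance of log2 values centered on the mean of each gene. Nearest to Hey1 were Nes (distance 0.18) and Bmx (0.34), and nearest to Mfng were Nrp1 (0.27) and Notch4 (0.27), of which Bmx, Nrp1 and Notch4 are typical of endothelium. Nearest to Hey2 were Anpep (0.10) and Abcc9 (0.20), and nearest to Heyl were Pdgfrb (0.16) and Cspg4 (0.18), genes known from pericytes, Cspg4 also from oligodendrocyte precursors. Hes5 lay nearest to Dtx1 (0.49) and to the astrocyte gene Aldh1l1 (0.54). The other 5 had pathway genes as the nearest, with Numb (0.14) and Psen2 (0.16) for Hes1, Ncstn (0.17) and Pofut1 (0.17) for Maml1, L3mbtl3 (0.17) and Maml3 (0.22) for Lfng, Tle4 (0.53) and Notch2 (0.55) for Nrarp, and Notch2 (0.61) for Rbpj, followed by the microglial gene C1qa (0.74). With 4 libraries in 2 groups, such distances mostly reflect the difference between the groups.

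Among 68 other genes of the pathway, 66 could be tested, and 10 were called higher and 22 lower (limma, Benjamini-Hochberg adjusted p). That is 32 of 66, beside 44.7% of all genes tested (28.6% higher and 16.0% lower). On the log2 scale the 66 had a median of -0.57, beside 0.05 over all genes. Under equal totals the split was 11 higher and 11 lower, and without tamoxifen library 1 or 2 there were 4 or 2 higher and 21 or 20 lower calls. Of the 11 receptors and ligands, 5 were lower, namely Notch1 (log2 -1.38), Notch4 (-2.57), Dll4 (-2.81), Jag1 (-1.60) and Jag2 (-2.99). Notch2 (1.18), the mural receptor Notch3 (1.58), Dll3 (3.66) and Dlk1 (3.37) were higher, of which Notch3 and Dlk1 lost the call by the adjusted p when tamoxifen library 1 or 2 was left out, with log2 values of 1.75 or 1.42 for Notch3 and 3.24 or 3.50 for Dlk1. Dll1 (-0.35) and Dlk2 (0.35) were not called. The Notch1 call was lost under equal totals (-0.91) and quantile normalization (-0.69).

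The counts of each group below stand beside 28.6% called higher and 16.0% called lower over all genes tested. Of the 12 glycosylation and processing enzymes, 1 was higher, the gamma-secretase subunit gene Aph1b (1.18), and 5 were lower, led by Psen2 (-1.42) and the sheddase gene Adam17 (-1.40). The Aph1b call was lost in 4 of 15 alternatives, with a lowest value of 0.48. Among these were the fits without control library 1, tamoxifen library 1 or tamoxifen library 2. Of 13 ubiquitin ligases and endocytic regulators, 3 were higher, led by the Deltex genes Dtx1 (3.47) and Dtx4 (2.61), and 3 were lower, led by Dtx3l (-1.62) and Numb (-1.41), an inhibitor of Notch. Without tamoxifen library 2 the calls of Dtx1 (3.05), Dtx4 (2.42) and Dtx3l (-1.33) were lost by the adjusted p (limma, Benjamini-Hochberg adjusted p = 0.0618, 0.0623 and 0.0507). Of 17 nuclear cofactors, which work beside Rbpj and Maml1, 1 was higher and 2 were lower, the corepressor gene Tle1 (-1.42) and the coactivator gene Maml2 (-1.14). The higher one was Rbpjl, the Rbpj relative, at 0 and 1.25 normalized counts in the controls and 20.6 and 22.3 after tamoxifen. Of 3 other Hes family genes tested, Helt was higher. It had 0 reads in both controls and 20.6 and 29.5 normalized counts after tamoxifen, at least 6.37-fold above the floor of 3 reads per library. Hes2 and Hes3 also had 0 reads in both controls but stayed below the filter mean of 10 and were not tested. Rbpjl, Helt and Dll3 reached that mean only through the tamoxifen libraries, so the filter fixed the direction of their calls. Of 10 arterial genes tied to endothelial Notch, 0 were higher and 7 were lower, led by Acvrl1 (-3.14) and Sox17 (-2.93). Their median log2 fold change was -1.86, where that of the 10 endothelial markers, all called lower, was -2.91. The calls of Psen2, Adam17, Numb, Tle1 and Maml2 were lost under equal totals, where their values fell within the size limit.

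**Figure D5:**
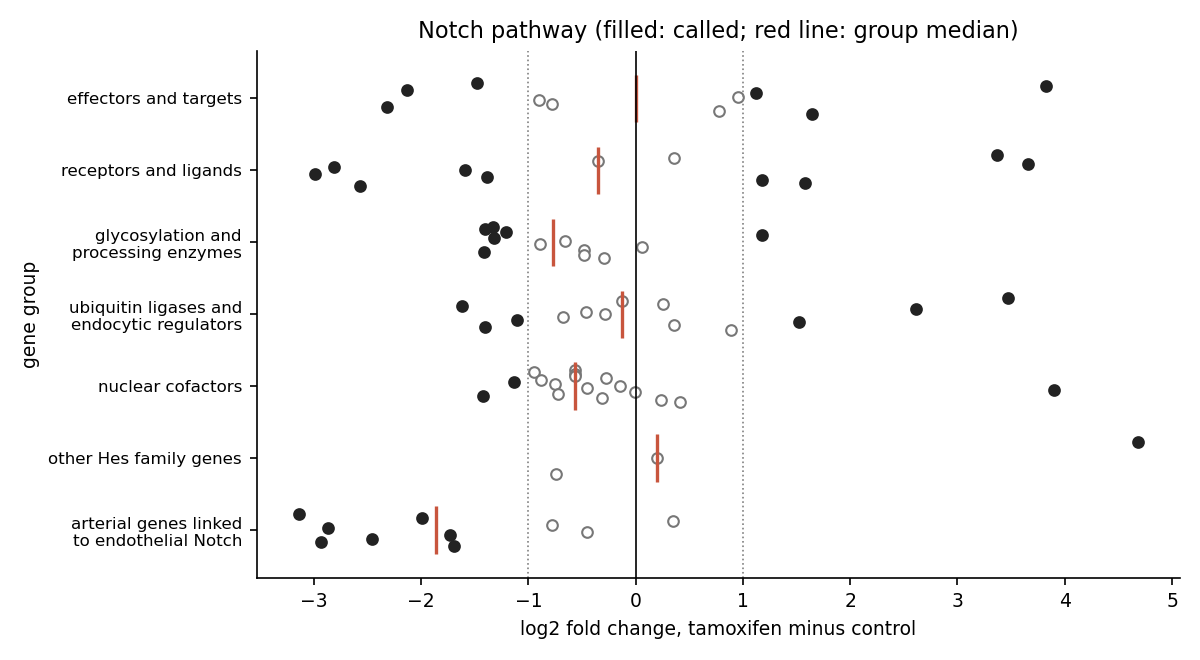
Log2 fold change (tamoxifen minus control) of the 10 effectors and targets and of the 66 other pathway genes tested, by group, filled where called, open where not, with a red line at the median of the group and dotted lines at the size limit of 1. The arterial genes lie farthest to the left, and the effectors and targets spread to both sides around a median of 0.00.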

How the data were processed

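RNA was sequenced from 2 control and 2 tamoxifen libraries (KAPA Stranded mRNA-Seq Kit), each pooled from 3 mice. The study used both male and female mice, and the sex of the mice in each pool is not given in the sources used here. The authors aligned reads to GRCm39 with STAR 2.7.10a and, with DESeq2 1.36.0, removed low genes and normalized the counts. The deposited values are this normalized signal, counts divided by size factors. Its steps gave whole reads for 100% of values in each library (tolerance 0.01), from which the reads used here were recovered. The annotation and strand setting of the counting are not given in the sources used here. The control columns were matched by their letter and number, and the tamoxifen columns, whose letter is not in the labels, by elimination and number.

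Log2(normalized count + 1) was fitted with limma 3.58.1 (lmFit, eBayes with trend, R 4.3.3) for 20485 genes that reached a mean of 10, with Benjamini-Hochberg adjustment over all of them. This design was kept in place of the DESeq2 test of the study because the deposited values are normalized. edgeR 4.0.16 and DESeq2 1.42.0 were run on the recovered reads as alternatives, beside other pseudocounts, filters, scalings, no trend, a replicate block and leaving out each library. The fits were checked on simulated counts in which 198 of 20446 genes tested changed by a log2 of 2. Of these, limma called 179, edgeR 183 and DESeq2 169. Far fewer genes changed there than were called here, so the check does not cover a shift this wide. Gene positions and exon lengths came from the GENCODE annotation of GRCm39, matched by symbol. The genes, lists and tests were chosen with earlier results of these data known. All 10 genes were named. Of the pathway list, all receptors and ligands and the 2 with the largest change called in each direction of every other group were named, and for each of the 10 the nearest genes. The labels give no batch, and the p-values measure only the spread between these pools. Vpreb1, a lymphocyte marker, was not analysed here.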

Additional observations from a re-analysis of the deposited data

How the results depend on the processing

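Of 150 alternative values of the 10 genes, 136 kept their direction and their side of the threshold, 8 lost and 5 gained a call, and 1 reversed, Nrarp at -0.24 after quantile normalization. Hey1, Hes1, Rbpj and Mfng kept their calls in every alternative tried. Of the other genes named, Dll1 turned to 0.12 and Mgp to 0.079 under equal totals, and Dlk2 turned to -0.61 after quantile normalization and ran from -0.13 to 0.84 when a library was left out. The count of calls over all genes was 5934 with a filter at a mean of 100, where fewer genes were tested, and 4979 to 10001 when a library was left out, with 5811 without tamoxifen library 1 and 4979 without tamoxifen library 2. The number of the 10 genes called was 4 to 8 and that of the pathway list 22 to 47 over the alternatives, the adjusted p alone included. Equal totals moved the median of all genes to 0.52, quantile normalization to -0.23 and no filter to 0.18. The replicate numbers do not pair the libraries by any label, and the deviations of same-numbered libraries correlated at 0.03. On the recovered reads edgeR called 9241 genes and DESeq2 8739, and 6 of the 10 with each. With the replicate block, 9525 genes, 6 of the 10 and 32 of the pathway list were called. Leaving out a library leaves a group with 1 library, which is then assumed to vary like the other group. The control level of Hes5 rests on 7 and 21 reads, which limits its fold change.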
